A study of Mus musculus with 12 samples.

Results

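The 10 genes followed here in the mouse testis were Purb, its paralogs Pura and Purg, and 7 genes that lie near Purb on chromosome 11, namely Ppia, Zmiz2, Ogdh, Myo1g, Ccm2, Tbrg4 and Ramp3. They were taken by symbol from a table of 20788 genes, by a rule that uses no measured value. Earlier results of these data were known when the genes were chosen. All 10 are among the 16388 genes with enough reads to be tested. Purb was the starting point because the hairpins used to knock down lncRNA5251, a long non-coding RNA, have their exact target sequence in the Purb transcript.

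RNA-seq libraries were made from F1 mouse testis. The study describes the mice as the 8-week-old offspring of ICR males ("IRC mouse" in the labels) whose testes had received a lentivirus at 4 weeks of age. The design text of the series says instead that the F1 testes were transfected. For the lncRNA5251 knockdown group the fathers had received 3 hairpins against lncRNA5251 in the vector LV3, mixed, and for 3NC a control hairpin in LV3. For the lncRNA5251 overexpression group they had received full-length lncRNA5251 in the vector LV5, and for 5NC the LV5 control. Each of the 4 groups had 3 libraries of whole testis. Whether the 3 libraries of a group are 3 animals is not in the labels, and p-values therefore rest on library spread that may be technical. lncRNA5251 has no row of its own in the table used here.

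Purb encodes Pur-beta, which binds purine-rich single-stranded DNA and RNA. Pur-alpha (Pura) and Pur-gamma (Purg) share its PUR repeats, and the family is known for repressing smooth muscle alpha-actin (Acta2) transcription together with the Y-box protein Ybx1, and for carrying messenger RNA in neuronal granules. Ybx2, the germ cell relative of Ybx1, is known in the testis for storing messenger RNA until spermatids translate it. The neighbours of Purb have other functions. Ppia is cyclophilin A, a peptidyl-prolyl isomerase, Ogdh is the first subunit of the oxoglutarate dehydrogenase complex of the TCA cycle, and Zmiz2 is a PIAS-like coactivator of the androgen receptor. Myo1g is a class I myosin of blood cells, Ccm2 is a scaffold of the cerebral cavernous malformation pathway, Tbrg4 (FASTKD4) stabilises mitochondrial RNA, and Ramp3 is an accessory protein of the calcitonin receptor family.

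The target sites are shown because they show which annotated RNA holds the hairpin sequences. Each is read 5′ to 3′ on the strand of the Purb messenger RNA, with the hairpin target in capitals and 4 flanking transcript bases on each side.
hairpin 1: caaaGCTGGGACTTAATGTCCTTCTagtt
hairpin 2: agctGCATGGGCAATTCAAACAAATccat
hairpin 3: acgtGCTTATTATGCATCGTAAACCagtg
In GRCm38 (mm10) they lie on the minus strand of chromosome 11, hairpin 1 at chr11:6468416-6468436, hairpin 2 at chr11:6467969-6467989 and hairpin 3 at chr11:6468248-6468268. All 3 fall in the 3′ untranslated region of the single-exon Purb transcript, which takes 7316 of its 8319 bases (87.9%). They span 468 bases and end 370 to 817 bases before the transcript's last base. Among 141767 GENCODE transcripts of 55341 genes, Purb was the single gene with an exact match to each, in the sense orientation. The paralogs lack such a site, with at least 7 mismatches to each hairpin in the sense orientation in both Pura and Purg. The control hairpin has no exact match, and its best sense alignment to Purb has 8 mismatches. An annotated RNA on the opposite strand, Gm11973 (chr11:6475425-6493535), overlaps 493 bases of the Purb gene. It does not reach the hairpin sites and has no row in the table. No strand setting is given in the sources used here, so reads of the 2 strands cannot be told apart, nor can Purb messenger RNA and a lncRNA of the same sequence.

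Library depth was 12719699 to 15771655 estimated reads. Markers of spermatids summed to 14500 to 20200 CPM (reads scaled to library size by TMM), those of spermatocytes to 1910 to 2570 and those of Sertoli cells to 664 to 900, and no gene of the 8 marker lists was at 0 in all libraries. Of all marker genes tested, 1 passed in a virus comparison, Spo11, the nuclease of meiotic breaks (61.7 ± 4.66 CPM in 5NC and 43.3 ± 3.72 in the overexpression group, SD, n = 3 each, log2 fold change -0.51, SE 0.09, edgeR adjusted p = 0.0452, passed in 6 of 15 alternatives). Leaving out any 1 of the libraries compared ended that call except 5NC replicate 1. Of all tested genes, 0.311% passed in overexpression against 5NC. In 5NC against 3NC, which shares the 5NC libraries, Spo11 had 0.46 (SE 0.09, edgeR adjusted p = 0.0826), and 0.47 (SE 0.07, adjusted p = 0.0203) with the GC slope as a covariate. With the covariate 0.647% of all tested genes passed between the controls. Leydig cell markers had the median farthest from 0 of the 8 lists in the knockdown group, at -0.82 on the log2 scale over 6 genes (-0.88 with the GC slope of the libraries as a covariate). Of the 6, 4 lay below 0 and 2 above, and none passed. An unadjusted p under 0.05 was found for 3 of the 6, against 5.64% of all tested genes. With the covariate 4 also lay below 0, while Hsd3b1 (0.28, SE 0.16) and Insl3 (0.15, SE 0.17) lay above. Leydig cell markers summed to 2010, 1790 and 1030 CPM in 3NC and to 1390, 1290 and 1050 in the knockdown group, so the sums overlapped. Their median was 0.01 in the overexpression group and -0.79 for the difference of the 2 virus effects (2 of 6 with an unadjusted p under 0.05, against 4.63% of all tested genes). In whole testis, fewer cells of a type and less RNA per cell cannot be told apart. Some libraries stood apart. In 3NC replicate 2 and knockdown replicate 1, 14 white blood cell markers summed to 498 and 397 CPM, against 24.8 to 70.1 in the other 10. Libraries also differed in how gene levels moved with GC content. Over 11790 genes, with the 10 genes left out, the log2 level relative to the mean of the 12 libraries changed by -0.20 to -0.13 per 10 percentage points of transcript GC in 5 libraries (3NC replicates 2 and 3, 5NC replicates 2 and 3, overexpression replicate 3) and by 0.05 to 0.18 in the other 7. This slope was computed after the data had been seen. All 3 knockdown libraries had a slope over 0, as had 1 of 3 3NC, 1 of 3 5NC and 2 of 3 overexpression libraries.

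By FPKM, which is per transcript length, the 10 genes covered a wide range of levels. Ppia was the most abundant at 814 ± 47.7 FPKM (mean ± SD, n = 12), followed by Zmiz2 at 59.4 ± 11.3, Ogdh at 34.0 ± 2.45 and Tbrg4 at 20.5 ± 2.02. Purb was next at 10.2 ± 1.14, above 68.2% of all genes of the table. Ccm2 (5.53 ± 0.838), Pura (5.18 ± 0.54) and Ramp3 (4.84 ± 0.73) differed by less than their spread, so their order is not settled. Purg averaged 1.84 ± 0.335 and Myo1g 0.641 ± 1.03 FPKM. Purg at 1.03 to 2.25 FPKM and Myo1g at 0.09 to 2.95 overlapped, and the other neighbours in this order were further apart than their SDs. Within the PUR family the order was therefore Purb, Pura, Purg, and the Purb range of 9.04 to 12.45 FPKM did not meet the Pura range of 4.63 to 6.45. By the coefficient of variation of CPM, Ppia was the steadiest member (4.67%), Purb had 9.52%, Zmiz2 19.9% and Myo1g 159%, and the median tested gene had 16.2%.

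**Figure D1:**
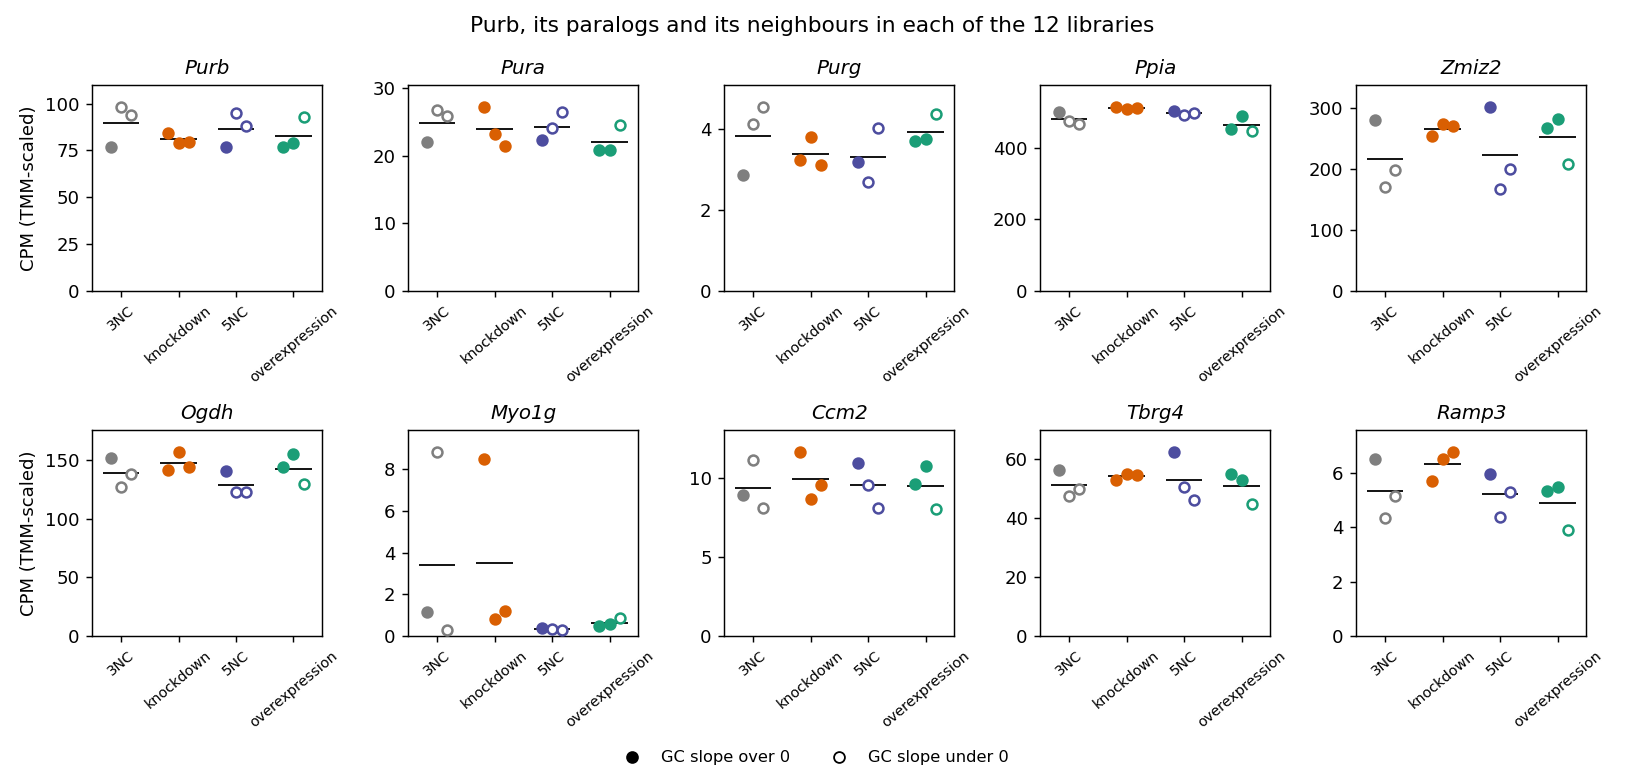
CPM of the 10 genes (y axes, each from 0) in the 12 libraries by group, with a line at each group's mean and open points for the 5 libraries whose GC slope is under 0. Open Purb points lie at 87.9 to 98.2 CPM and filled ones at 76.9 to 84.3, while the Zmiz2 points lie the other way round.

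The knockdown comparison asks whether the transcript that holds the hairpin sites was altered in the offspring. Purb was at 77.0, 98.2 and 93.8 CPM in the 3NC libraries and at 84.3, 79.0 and 79.7 in the knockdown libraries. The knockdown libraries all lay between the lowest and the second lowest 3NC library, so the groups overlapped. Means were 89.7 ± 11.2 and 81.0 ± 2.88 CPM (SD, n = 3 each), and edgeR's quasi-likelihood test gave a log2 fold change of -0.15 (SE 0.11, 95% interval -0.40 to 0.10, adjusted p = 0.766). It was -0.24 with 3NC replicate 1 left out and -0.08 with 3NC replicate 2 left out, and passed in neither. The two-sided exact permutation test on log2 CPM gave a difference of -0.14 and p = 0.4, where 0.1 is the smallest p that 3 against 3 libraries allow.

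Purb was at 76.9, 95.2 and 87.9 CPM in the 5NC libraries and at 76.9, 79.1 and 92.7 in the overexpression libraries. Both groups covered nearly the same range. The log2 fold change of overexpression against 5NC was -0.06 (SE 0.11, 95% interval -0.31 to 0.19, edgeR adjusted p = 0.891), and the exact permutation test gave p = 0.8. Without 5NC replicate 2 the sign turned, to 0.01, and with 5NC replicate 1 or overexpression replicate 3 left out it was -0.14. Between the vector controls, 5NC against 3NC, it was -0.05 (SE 0.11, 95% interval -0.30 to 0.20).

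Within the 3 groups that held libraries of both kinds, Purb was higher in each library with a GC slope under 0 than in each with a slope over 0. The Purb transcript is poor in GC (42.0%, lower than all but 13.2% of tested genes). The 5 libraries with a slope under 0 held it at 87.9 to 98.2 CPM and the other 7 at 76.9 to 84.3, with no overlap. Pura, nearly as poor in GC (43.3%), did overlap between the same libraries (24.1 to 26.8 and 20.8 to 27.2 CPM). Estimated reads were 12719699 to 15511362 in the 5 libraries and 15188804 to 15771655 in the 7, spermatocyte markers summed to 2060 to 2570 against 1910 to 2170 CPM, and spermatid markers to 14500 to 17800 against 14900 to 20200. The part of depth or cell make-up in this split was not tested, and 11.2% of tested genes did not overlap between the same libraries.

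Values within libraries of like slope were closer together. Among the 7 with a slope over 0, 3NC replicate 1 had 77.0 CPM of Purb and the knockdown libraries 79.0 to 84.3, while 5NC replicate 1 had 76.9 and the overexpression libraries 76.9 and 79.1. Among the 5 with a slope under 0, overexpression replicate 3 had 92.7 CPM, between the 5NC values of 87.9 and 95.2, and no knockdown library was in that set. With the slope as a covariate in the edgeR fit, an alternative chosen after seeing the data, the Purb log2 fold change was 0.00 in both virus comparisons (SE 0.05, 95% interval -0.12 to 0.12 in the knockdown group and -0.11 to 0.11 in the overexpression group). The standard error was then 0.05 in place of 0.11. In the 7 libraries alone it was 0.07 (95% interval -0.13 to 0.27) and 0.02 (-0.19 to 0.23), where a control with 1 library was assumed to vary like the other groups.

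**Figure D2:**
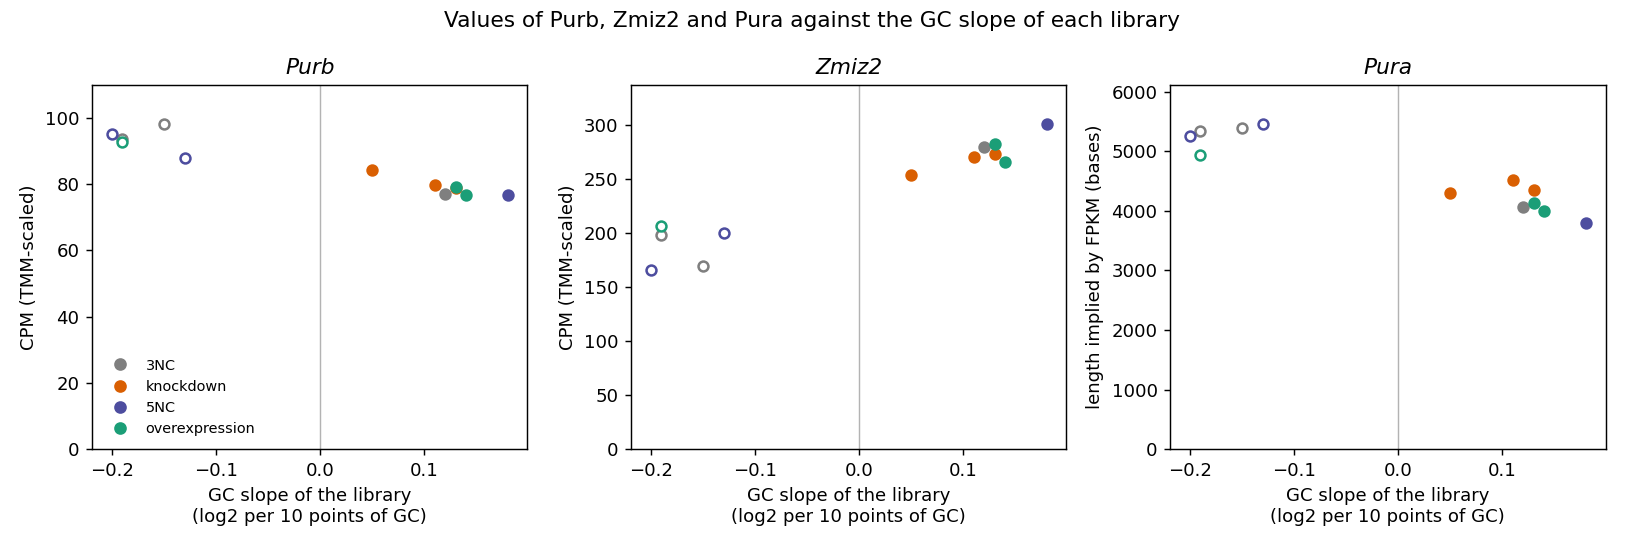
CPM of Purb and Zmiz2 and the transcript length implied for Pura (y axes from 0) against the GC slope of each library (x axis, log2 per 10 percentage points of GC), coloured by group, with open points for slopes under 0. Purb lies at 87.9 to 98.2 CPM left of 0 and at 76.9 to 84.3 right of it, Zmiz2 at 166 to 207 and 254 to 301 CPM, and the Pura length at 4938 to 5460 and 3804 to 4522 bases.

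Pura was at 22.0, 26.8 and 25.9 CPM in 3NC, 27.2, 23.2 and 21.5 in the knockdown group, 22.3, 24.1 and 26.5 in 5NC and 20.9, 20.8 and 24.5 in the overexpression group. The groups overlapped in each comparison. Its log2 fold change was -0.06 (SE 0.13, edgeR adjusted p = 0.911) in the knockdown group and -0.14 (SE 0.13, adjusted p = 0.733) in the overexpression group. On FPKM the first turned to 0.08 with limma. The 2 scales can differ because the length that the authors' FPKM implies for Pura was not constant: 3804 to 4522 bases in the 7 libraries with a GC slope over 0 and 4938 to 5460 in the other 5, a highest-to-lowest ratio of 1.44. For Purb the implied length stayed at 8326 to 8347 bases, close to its annotated transcript of 8319 bases. The implied length of Purg ranged from 1749 to 2664 bases, with overlap between the same libraries.

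Purg, the least abundant paralog, was at 2.85, 4.10 and 4.53 CPM in 3NC, 3.22, 3.79 and 3.11 in the knockdown group, 3.18, 2.67 and 4.01 in 5NC and 3.68, 3.73 and 4.36 in the overexpression group. Against the controls its log2 fold change was -0.18 (SE 0.22, edgeR adjusted p = 0.835) in the knockdown group and 0.25 (SE 0.23, adjusted p = 0.723) in the overexpression group. The first was -0.35 with 3NC replicate 1 left out, -0.28 with knockdown replicate 2 left out, -0.03 with 3NC replicate 3 left out and -0.04 with the GC slope as a covariate, and the second was 0.12 with 5NC replicate 2 left out, 0.42 with 5NC replicate 3 left out and 0.30 with the covariate. No paralog passed the test in any comparison, and the widest of their intervals in the virus comparisons, that of Purg in the overexpression group, ran from -0.24 to 0.75.

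Zmiz2 mirrored Purb. It was at 280, 170 and 198 CPM in 3NC, 254, 273 and 270 in the knockdown group, 301, 166 and 200 in 5NC and 266, 282 and 207 in the overexpression group. Its transcript is rich in GC (59.1%, above 93.8% of tested genes), and the 7 libraries with a slope over 0 (254 to 301 CPM) did not overlap the other 5 (166 to 207 CPM). The 3NC mean of 216 ± 57.3 CPM and the knockdown mean of 266 ± 10.3 (SD, n = 3 each) gave a log2 fold change of 0.30 (SE 0.22, edgeR adjusted p = 0.766), and overexpression against 5NC gave 0.18 (SE 0.22, adjusted p = 0.828). The first was 0.54 with 3NC replicate 1 left out and 0.15 with 3NC replicate 2 left out, and the second 0.46 with 5NC replicate 1 left out and 0.00 with 5NC replicate 2 left out. With the GC slope as a covariate these were 0.02 (SE 0.10) and 0.08 (SE 0.09). Because the libraries fall into separate sets, the members were correlated with Purb within the 7 libraries with a slope over 0, and none of the 9 passed after adjustment. Pearson's r of Purb with Zmiz2 was -0.704 (exact permutation p = 0.0861, adjusted p = 0.221 over 9 members compared) and Spearman's rho was -0.536 (exact permutation p = 0.236, adjusted p = 0.53). Without the 2 libraries farthest from the Purb median, r was 0.124. Leaving them out also narrows the range of Purb, so a lower r cannot tell what the relation rests on. The smallest unadjusted p of the 9 was that of Tbrg4 (r = -0.606, exact permutation p = 0.0349, adjusted p = 0.17, rho = -0.857, exact permutation p = 0.0238, adjusted p = 0.107), and its r without those libraries was -0.613. Myo1g had r = 0.908 (exact permutation p = 0.0377, adjusted p = 0.17) and rho = 0.857 (exact permutation p = 0.0238, adjusted p = 0.107), and its r fell to 0.322 without them. The paralog Pura had r = 0.806 (exact permutation p = 0.143, adjusted p = 0.258) and rho = 0.179 (exact permutation p = 0.713). Its r was 0.134 without the same 2 libraries.

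Ogdh, Tbrg4 and Ramp3, whose transcripts hold 52.5%, 57.1% and 55.4% GC, also separated by slope. Ogdh was at 141 to 157 CPM in the 7 libraries with a slope over 0 and at 123 to 138 in the other 5, Tbrg4 at 53.0 to 62.5 and 44.8 to 50.7, and Ramp3 at 5.33 to 6.75 and 3.89 to 5.30. The Ramp3 sets were barely apart, at 49 to 100 reads per library, so counting error could close that gap. Of all tested genes, 11.2% did not overlap between the same libraries. Ccm2, at 57.1% GC, did not separate (8.64 to 11.6 and 8.01 to 11.1 CPM). None passed the test. In the knockdown group their log2 fold changes ran from 0.08 for Tbrg4 to 0.25 for Ramp3 (SE 0.12 and 0.20), and in the overexpression group from -0.09 for Ramp3 to 0.15 for Ogdh (SE 0.21 and 0.10). Once the GC slope was a covariate, the knockdown values were -0.02 for Ogdh, -0.06 for Tbrg4, 0.04 for Ramp3 and 0.00 for Ccm2, and those in the overexpression group 0.10, -0.12, -0.19 and -0.04.

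Ppia had the tightest values. It was the 1 member of 10 whose groups did not overlap in both virus comparisons, which held for 2.33% of all tested genes (11.3% and 21.3% in the single comparisons). It was at 499, 475 and 467 CPM in 3NC and 514, 508 and 512 in the knockdown group, all higher. It was at 504, 491 and 496 CPM in 5NC and 453, 488 and 446 in the overexpression group, all lower. The log2 fold changes were 0.09 (SE 0.06, edgeR adjusted p = 0.764) and -0.10 (SE 0.06, adjusted p = 0.57), and neither passed. The difference of the 2 effects was 0.20 (SE 0.09, unadjusted p = 0.0544, adjusted p = 1.0). With the GC slope as a covariate they were 0.06 (SE 0.05) and -0.12 (SE 0.05, 95% interval -0.23 to -0.01, adjusted p = 0.252), and the difference was 0.18 (SE 0.07, 95% interval 0.03 to 0.33, unadjusted p = 0.0264, adjusted p = 0.639). Ppia has many near-identical processed pseudogenes, and the sources used here do not give how a read with several hits was counted, so its counts are uncertain.

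**Figure D3:**
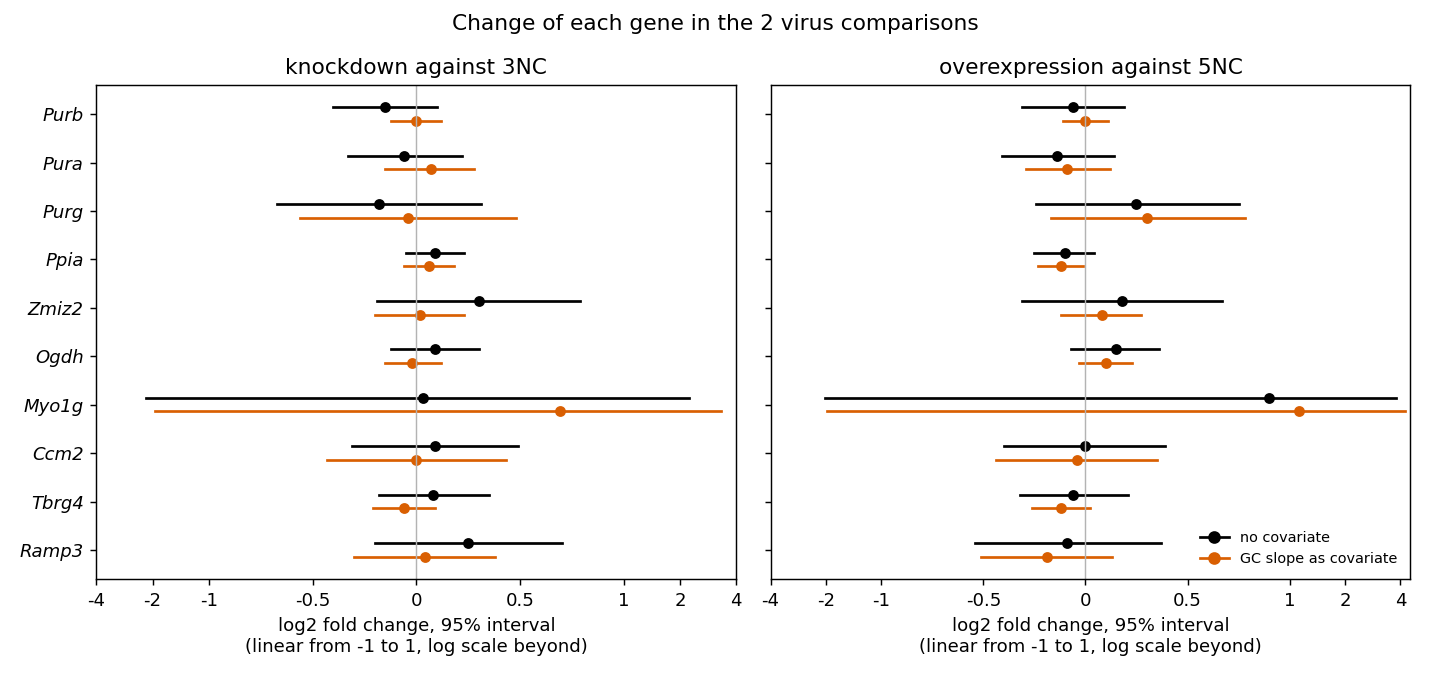
Log2 fold change of each gene with its 95% interval (x axis, linear from -1 to 1 and log beyond) in knockdown against 3NC (left) and overexpression against 5NC (right), without a covariate (black) and with the GC slope as one (orange). All black intervals contain 0, Purb lies at -0.15 and -0.06 in black and at 0.00 in orange, and the orange Ppia interval in the overexpression group runs from -0.23 to -0.01.

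Myo1g, the member nearest to Purb, had the most uneven values, with a coefficient of variation of 159% against a median of 16.2% over tested genes. It was at 1.13, 8.82 and 0.27 CPM in 3NC (17, 142 and 4 reads), 8.47, 0.798 and 1.22 in the knockdown group (134, 12 and 18 reads), 0.374, 0.352 and 0.286 in 5NC and 0.46, 0.599 and 0.873 in the overexpression group. The high values were those of 3NC replicate 2 and knockdown replicate 1, the libraries whose white blood cell markers stood apart, and no other library exceeded 1.22 CPM. Ptprc (CD45), which marks white blood cells, was at 94.8 and 71.7 CPM in these 2 and at 2.12 to 6.91 in the other 10. The part of blood cells in the Myo1g values was not tested. Its log2 fold change was 0.03 (SE 1.0, 95% interval -2.16 to 2.23) in the knockdown group, and it was -1.76 with knockdown replicate 1 left out and 2.31 with 3NC replicate 2 left out. Leaving out both gave 0.52, an alternative chosen after seeing the data. In the overexpression group it was 0.90 (SE 1.33, edgeR adjusted p = 0.862), from 0.644 ± 0.21 against 0.337 ± 0.0458 CPM (SD, n = 3 each). These are 7 to 11 reads against 4 to 6.

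**Figure D4:**
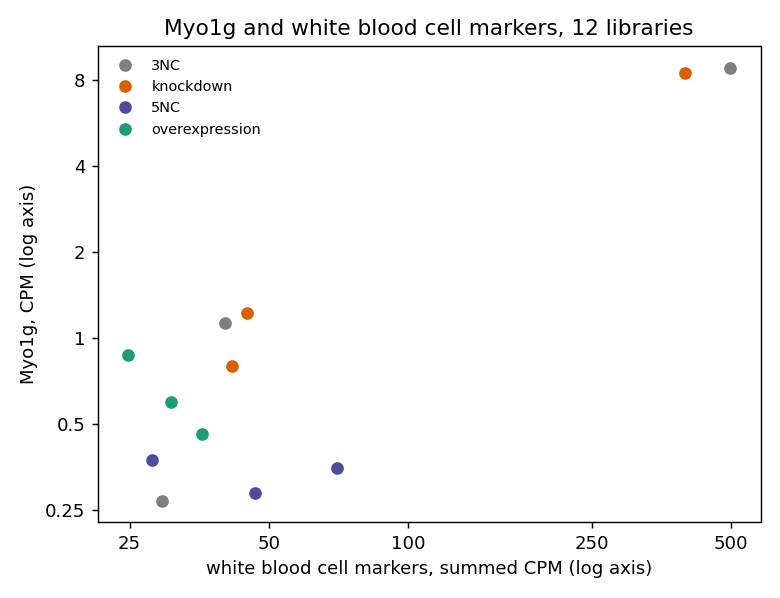
CPM of Myo1g against the summed CPM of 14 white blood cell markers in the 12 libraries (both axes log), coloured by group. The libraries 3NC replicate 2 and knockdown replicate 1 lie at 8.82 and 8.47 CPM with marker sums of 498 and 397, and the other 10 lie at 1.22 CPM or less.

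Counted over the 10 genes, none passed the edgeR test at an adjusted p of 0.05 in knockdown against 3NC, where 0.0% of all tested genes did. Over all genes DESeq2 called 16 and limma on log2(FPKM + 0.1) and log2(FPKM + 1) called 0 and 1, and none of these tools called any of the 10 in any comparison. At an unadjusted p under 0.05, 0 of 10 genes lay below the threshold, against 5.64% of all tested genes. The groups did not overlap for 1 gene, Ppia, against 11.3% of all tested genes. The 10 log2 fold changes had a median of 0.08, against -0.02 for all tested genes, with 7 above 0 and 3, all of the PUR family, below. With the GC slope as a covariate the Pura value was 0.07 and the Purb value 0.00, so the common sign of the family was lost.

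In overexpression against 5NC, 0 of 10 genes passed, against 0.311% of all tested genes, and 0 of 10 had an unadjusted p under 0.05, against 11.9%. Groups did not overlap for 2 genes, Ppia (lower) and Myo1g (higher), against 21.3% of all tested genes. The median log2 fold change was -0.03, against -0.01 for all. Between the controls, 5NC against 3NC, 0 of 10 passed against 0.128%, and 1 of 10, Myo1g, had an unadjusted p under 0.05 against 10.8%. Its log2 fold change there was -3.31 (SE 1.22, unadjusted p = 0.0199, adjusted p = 0.397), and -1.03 without 3NC replicate 2 and knockdown replicate 1. No member's control groups were free of overlap, against 13.0% of all tested genes. For the difference of the 2 virus effects, 0 of 10 passed against 0.0244%, and 0 of 10 had an unadjusted p under 0.05 against 4.63%. These shares are no higher than those of all tested genes.

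The table holds 17 genes whose annotated starts lie within 500 kb of that of Purb, of which 8 are members, and 8 of the other 9 were tested. None of these 8 passed in either virus comparison. H2afv, a histone H2A variant and the closest gene at 23.1 kb, was at 16.8 ± 0.798 CPM in 3NC and 18.7 ± 0.416 in the knockdown group (SD, n = 3 each, log2 fold change 0.16, SE 0.11), and at 19.9 ± 0.468 in 5NC and 17.6 ± 2.17 in the overexpression group (-0.18, SE 0.11). The smallest unadjusted p in the knockdown group was that of the lncRNA gene Gm46270, which overlaps the annotated span of Ogdh (3.85 ± 0.984 against 1.68 ± 0.687 CPM, log2 fold change 1.19, SE 0.49, edgeR adjusted p = 0.764). In the overexpression group it was that of Npc1l1, a sterol transporter (-0.55, SE 0.33, adjusted p = 0.555). By distance from Purb, the members nearest to it (Myo1g at 30.5 kb, Ppia at 47.8 kb, Zmiz2 at 61.4 kb) had log2 fold changes of 0.03, 0.09 and 0.30 in the knockdown group, and the farthest, Ramp3 at 182.4 kb, had 0.25.

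**Figure D5:**
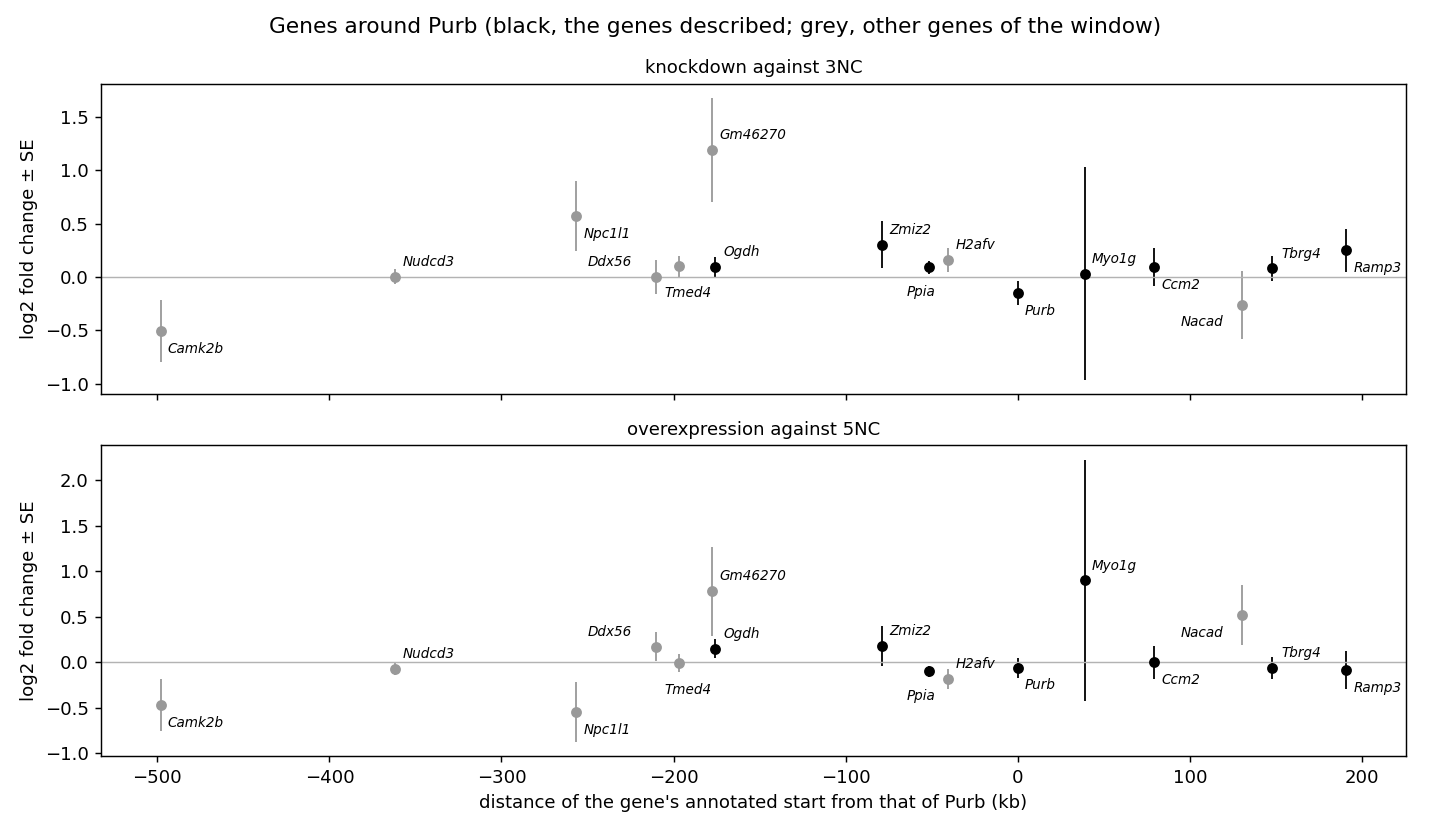
Log2 fold change ± SE (y axes) of the tested genes around Purb by the distance of their annotated start, the lower coordinate, from that of Purb (x axis, kb) in both virus comparisons. Members are black and the other 8 tested genes of the window grey, none passed the test, and Purb itself lies at -0.15 and -0.06.

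The partners of the PUR proteins were read from a list of 8 genes, none of which passed in any comparison. Ybx2 was at 1510 ± 366 CPM in 3NC and 1940 ± 232 in the knockdown group (SD, n = 3 each, log2 fold change 0.36, SE 0.21, edgeR adjusted p = 0.764), and Ybx1 at 1430 ± 212 and 1550 ± 104 (0.11, SE 0.11). Like Zmiz2, Ybx2 did not overlap between the 5 libraries with a GC slope under 0 (1170 to 1460 CPM) and the other 7 (1670 to 2070 CPM), which hold all 3 knockdown libraries. With the slope as a covariate its log2 fold change was 0.09 (SE 0.11). By FPKM, Ybx2 averaged 1190 and Ybx1 858 over the 12 libraries, far above Purb. Srf, the serum response factor, had the smallest unadjusted p of the list in both virus comparisons (0.43, SE 0.19, adjusted p = 0.764 in the knockdown group and 0.22, SE 0.19, adjusted p = 0.713 in the overexpression group), and had 0.19 (SE 0.08) and 0.10 (SE 0.08) with the covariate.

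The 6 genes listed as PUR targets were all tested and none passed. Acta2 was at 37.4 ± 8.34 CPM in 3NC, 33.2 ± 0.747 in the knockdown group, 41.9 ± 8.5 in 5NC and 35.9 ± 2.86 in the overexpression group (SD, n = 3 each), with log2 fold changes of -0.17 and -0.23 (SE 0.17 each), and of -0.34 (SE 0.13, unadjusted p = 0.0287, adjusted p = 1.0) and -0.28 (SE 0.12, unadjusted p = 0.0427, adjusted p = 0.276) with the GC slope as a covariate. Acta2 is also 1 of the 6 peritubular myoid cell markers, of which 4 lay below 0 in the knockdown group (median -0.20) and 5 in the overexpression group (median -0.16), and 6 (median -0.28) and 5 (median -0.20) with the covariate. The part of these cells in the Acta2 values was not tested. Myh6, cardiac alpha-myosin, had the smallest unadjusted p of this list in both. It was at 15.2 ± 4.97 CPM in 3NC and 35.1 ± 2.66 in the knockdown group (log2 fold change 1.21, SE 0.32, unadjusted p = 0.00269, edgeR adjusted p = 0.764), and at 15.9 ± 6.85 and 23.0 ± 6.25 in 5NC and the overexpression group (0.54, SE 0.32, adjusted p = 0.546). Of 12 genes of neuronal PUR granules none passed in any comparison. Log2 fold changes below 0 were found for 10 of the 12 in knockdown against 3NC (median -0.19, against -0.02 for all tested genes), 8 in overexpression against 5NC (median -0.04, against -0.01) and 8 between the controls (median -0.09, against -0.02). With the GC slope as a covariate, which was over 0 in all 3 knockdown libraries and 1 of 3 3NC libraries, 8 of 12 lay below 0 in the knockdown group (median -0.04), 4 in the overexpression group (median 0.03) and 7 between the controls (median -0.07). The smallest unadjusted p of the list were those of Fmr1, the fragile X protein gene (-0.42, SE 0.18), in the knockdown group and of the kinesin Kif5c (0.25, SE 0.11) in the overexpression group.

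In the fit without a covariate, the families and pathways of the neighbours gave 1 call in the virus comparisons. Of all tested genes, 0.311% passed in overexpression against 5NC and 0.0% in knockdown against 3NC. Among 7 other class I myosins, Myo1d rose in the overexpression group, from 9.3, 10.7 and 10.2 CPM in 5NC to 16.6, 23.8 and 24.6 (log2 fold change 1.11, SE 0.20, edgeR adjusted p = 0.0485). It passed in 6 of 15 alternatives, with adjusted p-values from 0.000119 to 0.433 and log2 fold changes from 0.75 to 1.27, and leaving out any 1 of the libraries compared ended the call except overexpression replicate 1. With the GC slope as a covariate Myo1d passed with a log2 fold change of 1.16 (SE 0.18, adjusted p = 0.0259), and Myo1c, another member of that family, passed at -0.46 (SE 0.07, adjusted p = 0.0227). In that fit 0.885% of all tested genes passed in the overexpression comparison. In the knockdown group the smallest unadjusted p of that list was that of Myo1a (0.30, SE 0.16). None of 16 other cyclophilins passed. Their log2 fold changes were below 0 for 13 of 16 in the knockdown group (median -0.07, and 8 of 16 with the GC slope as a covariate) and for 11 of 16 in the overexpression group (median -0.11), with Ppil4 (-0.26, SE 0.12) leading in the knockdown group and Ppil6 (0.43, SE 0.17) in the overexpression group. None of 18 genes of the oxoglutarate dehydrogenase complex and the TCA cycle passed in a virus comparison, with or without the covariate, with Sdhc (0.21, SE 0.10), a subunit of succinate dehydrogenase, leading in the knockdown group and Dlst (-0.30, SE 0.09, adjusted p = 0.209), the second subunit of the Ogdh complex, in the overexpression group. Ogdhl, a paralog of Ogdh, passed in 5NC against 3NC with the covariate (0.51, SE 0.09, adjusted p = 0.0413), where 0.647% of all tested genes passed.

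None of 8 genes of the PIAS and androgen receptor list passed. Pias1, a SUMO ligase, led it in both virus comparisons, at 209 ± 21.3 against 245 ± 9.81 CPM in 3NC and the knockdown group (log2 fold change 0.23, SE 0.08) and 184 ± 5.92 against 229 ± 13.2 in 5NC and the overexpression group (0.32, SE 0.08, edgeR adjusted p = 0.162; SD, n = 3 each). None of 12 CCM pathway genes passed, with the transcription factors Klf2 (0.32, SE 0.12) leading in the knockdown group and Klf4 (0.58, SE 0.16, adjusted p = 0.167) in the overexpression group. None of the 4 tested genes of the calcitonin receptor family passed, with Ramp2 (-0.36, SE 0.33) and Ramp1 (-1.26, SE 0.35, adjusted p = 0.169) leading, nor did any of 5 FASTK genes, led by Fastkd1 (-0.24, SE 0.14) and Fastkd5 (-0.30, SE 0.19). Ramp1 was at 1.26 ± 0.219 CPM in 3NC, 1.14 ± 0.168 in the knockdown group, 3.13 ± 1.1 in 5NC and 1.31 ± 0.459 in the overexpression group, so 5NC stood apart from the other groups, and its log2 fold change in 5NC against 3NC was 1.31 (SE 0.34, unadjusted p = 0.00278, adjusted p = 0.237).

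The overexpression comparison and that of the controls share the 5NC libraries, and several genes that led a list in the former had the other sign in the latter. In 5NC against 3NC the log2 fold change was -0.50 (SE 0.17) for Ppil6, -0.43 (SE 0.16) for Klf4, -0.19 (SE 0.08) for Pias1, 0.27 (SE 0.09) for Dlst and 0.59 (SE 0.33) for Npc1l1. In the fit with the GC slope, the knockdown value was -0.20 (SE 0.13) for Fmr1, -0.12 (SE 0.07) for Ppil4, -0.09 (SE 0.11) for Fastkd1, 0.16 (SE 0.13) for Myo1a and 0.74 (SE 0.43) for Gm46270, each nearer to 0 than without it. Ramp2 moved away from 0, from -0.36 (SE 0.33) to -0.49 (SE 0.37). Myh6 was at 0.95 (SE 0.32), against 1.21 without the slope.

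As a description over the 12 libraries, the genes most like Purb by Pearson's r of log2 CPM were Tmem87a (0.982), Csnk1g3 (0.981), Psmc6 (0.974), Creb1 (0.972) and Ssr1 (0.972). These 12 libraries include both sets of GC slope. The genes most like Myo1g were Myo1f (0.98), Cd276 (0.974), Myc (0.974), Daglb (0.973) and Dock2 (0.97). Over the 10 libraries left without 3NC replicate 2 and knockdown replicate 1, these r were 0.9, 0.936, 0.84, 0.882 and 0.858.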

How the data were processed

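Poly(A) RNA of 12 testis libraries was sequenced, and per the study's methods the authors aligned reads to mouse genes with SOAPaligner. Build mm10 is named in the labels. Estimated counts per gene, unscaled, were deposited with FPKM values computed by the authors, whose implied transcript lengths were read from counts and FPKM. The aligner was set to report all hits of a repeat read (-r 2), but the sources used here do not say how such reads were then counted for genes and isoforms. The table's 18 further per-sample columns of other groups were not used.

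Groups and replicate numbers came from the sample titles. Estimated counts were rounded, and filterByExpr kept 16388 of 20788 genes. All 12 libraries entered 1 edgeR 4.0.16 fit (R 4.3.3, TMM, quasi-likelihood F test, a coefficient per group, 8 residual degrees of freedom, biological coefficient of variation 22.9%), with Benjamini-Hochberg adjustment over all genes tested and a threshold of 0.05. The study tested reads with DEGseq, which has no term for the spread between libraries and was not used here. Purb was also compared by an exact permutation test (scipy 1.17.1). At 12719699 to 15771655 estimated reads per library, genes with few reads, such as Myo1g, carry large counting error.

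Alternatives were RLE size factors, no filter, the replicate number as a block, fits restricted to the libraries compared, DESeq2 1.42.0, limma 3.58.1 on log2(FPKM + 0.1) and log2(FPKM + 1), and leaving out each library in turn. Added after seeing the data were the GC slope as a covariate, only the 7 libraries with a slope over 0, and leaving out the 2 libraries with high white blood cell markers. The slope used the longest GENCODE transcript of each gene (97.8% of tested genes had one) and genes with a mean of over 5 CPM. Same-numbered libraries of different groups did not deviate together throughout (18 pairs, r from -0.707 to 0.443, 6 over 0.1), so the numbers were not taken as pairs. Hairpin sequences from the study's supplement were searched in GENCODE transcripts of GRCm38, the same build as mm10. Coordinates of genes came from RefSeq on that build, to which 20630 IDs matched. The scripts were tested on simulated data.

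The members and gene lists were chosen with earlier results of these data known. Named were all 10 members, from each pathway list the gene with the smallest unadjusted p in each virus comparison, Ybx1, Ybx2 and Acta2, and the 5 genes most like Purb and Myo1g. H2afv, Ptprc, Spo11, Myo1c and Ogdhl are named outside the rule, with their values known.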

Additional observations from a re-analysis of the deposited data

How the results depend on the processing

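None of the 10 genes passed in any comparison under any alternative, and the smallest adjusted p of any was 0.0994, that of Myo1g for 5NC against 3NC with DESeq2. Of 288 single-gene values under alternatives other than leaving out 1 library, 261 kept their direction. Counts over all tested genes moved more than 1.5 times in places, for instance for overexpression against 5NC from 51 to 328 with DESeq2, 145 with the GC slope as a covariate and 0 in the 7 libraries alone. With single libraries left out they ranged from 9 (without 5NC replicate 2 or 3) to 49 (without 5NC replicate 1) for overexpression against 5NC, with 14 to 26 when an overexpression library was left out, from 0 to 12 (without 3NC replicate 3, and 2 without knockdown replicate 3) for knockdown against 3NC, from 3 or 4 (without a 5NC library) through 13 (without 3NC replicate 1) to 35 (without 3NC replicate 2) against 21 between the controls, and from 2 to 10 against 4 for the difference of the virus effects.

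Directions turned in these cases, and the cause was not tested. With the GC slope as a covariate, the log2 fold changes in knockdown against 3NC were 0.00 for Purb, 0.07 for Pura, -0.02 for Ogdh and -0.06 for Tbrg4, that of Purb in overexpression against 5NC was 0.00, and that of Zmiz2 between the controls was -0.01. In the 7 libraries with a slope over 0, knockdown against 3NC gave 0.07 for Purb, 0.12 for Pura, 0.24 for Purg, -0.08 for Zmiz2, -0.05 for Ogdh, -0.06 for Tbrg4 and -0.04 for Ramp3, overexpression against 5NC gave 0.02 for Purb and -0.14 for Zmiz2, and 5NC against 3NC gave 0.01 for Pura and 0.16 for Purg. On log2(FPKM + 0.1) and log2(FPKM + 1) Pura was at 0.08 and 0.07 in the knockdown group and at 0.03 and 0.03 between the controls. Without the 2 libraries with high white blood cell markers, 5NC against 3NC gave 0.02 for Purb, 0.02 for Pura, -0.11 for Zmiz2 and 0.00 for Tbrg4. Ccm2 in the overexpression group was at 0.00 with no filter and in a fit of only the libraries compared.

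With single libraries left out, 27 of 180 values turned. In knockdown against 3NC, Purb kept its sign (-0.24 to -0.08, and -0.25 to -0.07 on log2 CPM), Pura ranged from -0.16 to 0.01, Myo1g from -1.76 to 2.31 and Ccm2 from -0.04 to 0.22. In overexpression against 5NC, Purb ranged from -0.14 to 0.01 (from -0.15 to 0.01 on log2 CPM), Ccm2 from -0.11 to 0.11, Tbrg4 from -0.15 to 0.07 and Ramp3 from -0.20 to 0.06. Among values that kept their sign, those in knockdown against 3NC ranged from -0.35 to -0.03 for Purg, 0.08 to 0.13 for Ppia, 0.15 to 0.54 for Zmiz2, 0.02 to 0.17 for Ogdh, 0.03 to 0.16 for Tbrg4 and 0.12 to 0.42 for Ramp3, and those in overexpression against 5NC from -0.21 to -0.07 for Pura, 0.12 to 0.42 for Purg, -0.14 to -0.07 for Ppia, 0.00 to 0.46 for Zmiz2, 0.09 to 0.22 for Ogdh and 0.64 to 1.09 for Myo1g. In 5NC against 3NC, Purb ranged from -0.14 to 0.02, Pura from -0.11 to 0.02, Zmiz2 from -0.24 to 0.28, Ccm2 from -0.10 to 0.16, Tbrg4 from -0.09 to 0.13 and Ramp3 from -0.16 to 0.14.

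A replicate block left the Purb log2 fold change at -0.14 in the knockdown group and -0.06 in the overexpression group, with 0 of 10 genes called. The exact paired permutation test gave p = 0.5 and p = 1.0, where 0.25 is the smallest p that 3 pairs allow, so it could not pass. Over all genes the block moved the calls in the overexpression group from 51 to 21. Of the same-number pairs, 6 of 18 had r over 0.1.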
